A study of Mus musculus with 12 samples.

Results

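The regions described here were stretches of open chromatin that were found in every library of cells carrying both an Asxl1 guide and the receptor mutant CSF3R T618I, and hardly anywhere else. They were chosen by where peaks were called: the peaks of 12 libraries were merged wherever they overlapped by at least 1 bp on chromosomes 2 to 19, and a merged region was kept when all 3 sgB2/T618I libraries had a peak in it and at most 2 of the other 9 libraries did. This gave 441 of 48531 merged regions, or 0.909 percent. The data were ATAC-seq peak lists from mouse HoxB8 cells, which are bone marrow progenitors immortalised with Hoxb8 under estrogen control. Every library was made 48 h after estrogen had been withdrawn from medium containing stem cell factor. The 4 groups had 3 libraries each: sgNT/Empty carried a non-targeting guide and the empty pMICH vector, sgB2/Empty the guide made to truncate Asxl1 and the empty vector, sgNT/T618I the non-targeting guide and a vector overexpressing CSF3R T618I, and sgB2/T618I the Asxl1 guide and that receptor. The labels name neither the promoter of the vector nor whether a group was a clone or a pool of edited cells, and they do not say whether its 3 libraries came from separate cultures. An effect of the Asxl1 guide and any other difference between the sgB2 and sgNT cell lines cannot be told apart. The spread behind every p-value here is that between these libraries, which may be technical. A bulk peak list cannot tell fewer cells with an open region from a region that is less open in each cell.

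In ATAC-seq a transposase cuts accessible DNA, so peaks mark promoters, enhancers and other regions free of tightly packed nucleosomes. CSF3R is the receptor for granulocyte colony-stimulating factor, which drives neutrophil production through JAK and STAT proteins, and T618I is a mutation found in chronic neutrophilic leukaemia that makes the receptor signal without its ligand. ASXL1 is a chromatin regulator that works with Polycomb proteins and with the deubiquitinase BAP1, and truncating mutations of it are frequent in myeloid neoplasms. Enhancers, which often lie far from genes, differ more between related cell states than promoters do.

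Of the 441 regions, 30 (6.8%) lay over at least 1 annotated transcription start window of 300 bases, against 17.1% of all merged regions and 5.58% of the regions found in 3 to 5 libraries. The share was 5.21%, 6.59% and 8.76% in the regions nearly private to sgNT/Empty, sgB2/Empty and sgNT/T618I by the same rule. These 30 covered 35 start windows of 31 genes, 21 of them protein-coding. The 250 bases before the start are shown for the 6 coding genes whose region ranked highest, because they are the members that can be tied to a named promoter. The sequences are from RefSeq (GRCm38.p6), run from 5′ to 3′ on the strand of the gene, and have in capitals any match to 6 motifs of factors active in myeloid cells. Cdkn1a encodes the cell cycle inhibitor p21, Galk2 a galactosamine kinase, Frmd5 a FERM domain protein, Zfp287 a zinc finger protein, Mfsd2a a lysophospholipid transporter and Elavl2 an RNA-binding protein.
Cdkn1a (chr17:29093519-29093768, plus strand): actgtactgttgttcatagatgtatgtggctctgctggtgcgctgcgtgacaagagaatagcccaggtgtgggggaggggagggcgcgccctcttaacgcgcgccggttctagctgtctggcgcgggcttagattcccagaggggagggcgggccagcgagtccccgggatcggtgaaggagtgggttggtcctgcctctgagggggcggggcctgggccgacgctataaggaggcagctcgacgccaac
Galk2 (chr2:125865973-125866222, plus strand): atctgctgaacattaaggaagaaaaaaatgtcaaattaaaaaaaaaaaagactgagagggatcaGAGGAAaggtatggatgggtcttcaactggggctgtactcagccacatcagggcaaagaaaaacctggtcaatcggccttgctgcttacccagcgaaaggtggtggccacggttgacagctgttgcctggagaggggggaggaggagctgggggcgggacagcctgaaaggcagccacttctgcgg
Frmd5 (chr2:121807058-121807307, minus strand): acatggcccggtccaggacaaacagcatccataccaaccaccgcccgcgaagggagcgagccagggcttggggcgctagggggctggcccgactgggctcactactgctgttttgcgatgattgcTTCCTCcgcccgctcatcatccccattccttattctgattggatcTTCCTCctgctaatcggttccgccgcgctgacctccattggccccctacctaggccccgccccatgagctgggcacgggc
Zfp287 (chr11:62731897-62732146, minus strand): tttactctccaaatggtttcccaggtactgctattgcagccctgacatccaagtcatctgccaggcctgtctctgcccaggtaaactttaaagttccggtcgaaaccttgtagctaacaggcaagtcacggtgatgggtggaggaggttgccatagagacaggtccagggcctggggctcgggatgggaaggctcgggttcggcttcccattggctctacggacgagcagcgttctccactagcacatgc
Mfsd2a (chr4:122961189-122961438, minus strand): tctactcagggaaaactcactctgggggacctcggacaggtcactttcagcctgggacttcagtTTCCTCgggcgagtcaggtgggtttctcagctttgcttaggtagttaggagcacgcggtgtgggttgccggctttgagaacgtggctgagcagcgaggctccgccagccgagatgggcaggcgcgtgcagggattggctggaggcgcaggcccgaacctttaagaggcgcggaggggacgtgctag
Elavl2 (chr4:91376497-91376746, minus strand): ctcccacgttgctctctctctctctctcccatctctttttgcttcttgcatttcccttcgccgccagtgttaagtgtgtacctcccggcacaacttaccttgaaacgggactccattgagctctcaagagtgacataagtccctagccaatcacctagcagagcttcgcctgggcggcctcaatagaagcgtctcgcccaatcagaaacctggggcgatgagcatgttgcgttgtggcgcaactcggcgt
Matches were to the PU.1 letters GAGGAA, once in the Galk2 window and, read on the opposite strand, at 2 places in Frmd5 and at 1 in Mfsd2a. The Galk2 and Mfsd2a matches lay outside the member, and both Frmd5 matches lay inside it. The Cdkn1a, Zfp287 and Elavl2 windows held none of the letters searched. Over the 35 start windows, both strands read, GAGGAA was in 42.9% against 28.2% of all 29382 start windows, the AP-1 letters TGANTCA in 17.1% against 7.83%, the STAT letters TTCNNNGAA in 8.57% against 8.37%, the RUNX letters TGTGGT in 11.4% against 16.7%, the C/EBP letters TTGCNNAA in 2.86% against 10.8%, and the NF-kB letters (GGG and TTTCC, 2 bases apart) in 0 of 35 against 1.67%. These are descriptions of letters in 15, 6, 3, 4, 1 and 0 windows and were not tested. Letters were counted anywhere in a window, also outside the member. Windows can overlap: those of Kcne3 and Gm34821, on opposite strands, hold the same AP-1 site, which was counted in both.

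The lists held between 18484 and 32975 peaks on chromosomes 1 to 19 and X and covered between 9.23 and 17.9 Mb. The longest list was that of sgB2/T618I replicate 2, and the other replicates of that group had 24995 and 23695 peaks. Read depth was unknown, so no counting interval could be given. Start windows of the myeloid progenitor genes Mpo, Cebpa, Csf3r and Kit had a peak in all 12 libraries, that of Ctsg in 11 and that of Cd34 in 9, whereas Elane had one in 1 library and Prtn3 in 0. The start windows of Cd3e, Cd3g, Cd8a and Lck of T cells, Cd79a, Ebf1 and Pax5 of B cells, Gata1, Klf1 and Epor of erythroid cells and Col1a2 of fibroblasts had a peak in 0 of 12 libraries. No member lay within 50 kb of Asxl1, Csf3r or Hoxb8.

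The same rule gave 947 regions (1.95 percent of 48531) nearly private to sgNT/T618I, 192 (0.396 percent) to sgNT/Empty and 167 (0.344 percent) to sgB2/Empty. The count of 441 in sgB2/T618I was thus below that of cells with T618I alone and above both groups with the empty vector. The order was different in lists of equal length. With every list cut to its 18484 strongest peaks the counts were 336 for sgB2/T618I, 469 for sgNT/T618I, 359 for sgB2/Empty and 274 for sgNT/Empty, so that sgB2/T618I came below sgB2/Empty. Among peaks with a −log10 q of at least 5 they were 118, 840, 166 and 98. The 441 members were largely peaks near the caller's limit: 85 of them (19.3%) were again members in the lists of equal length, where they made up 25.3% of the 336, and 27 (6.12%) were again members among the stricter peaks, or 22.9% of the 118. Both alternatives only remove peaks, so a member could drop out only by losing an sgB2/T618I peak. This happened to 356 and 414 regions. Leaving out a library loosens the rule, so a higher count then follows largely from the rule itself. The count was 1006 without sgB2/T618I replicate 1 and 1123 without replicate 3. It was 766, 745 and 770 without sgNT/T618I replicates 1, 2 and 3.

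**Figure D1:**
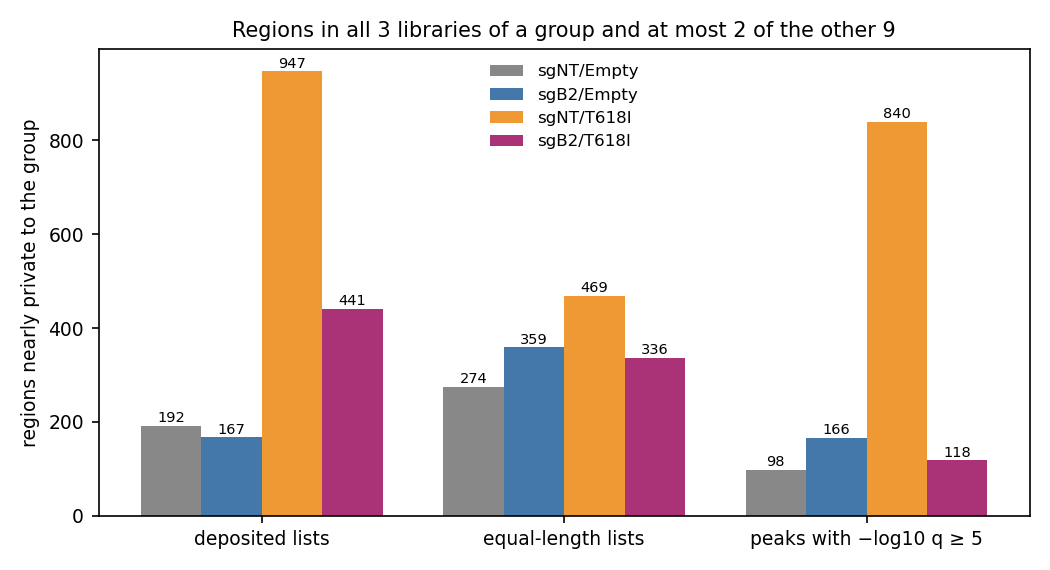
Bars give the number of merged regions on chromosomes 2 to 19 with a peak in all 3 libraries of a group and in at most 2 of the other 9, for the deposited lists, lists cut to 18484 peaks, and peaks with a −log10 q of at least 5. The sgB2/T618I count is 441, 336 and 118, and it is above both Empty groups in the deposited lists but not in either alternative.

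The members were short and weak in the 3 libraries that define them. Their width ran from 192 to 2168 bp with a median of 457 bp and quartiles of 350 and 622 bp, against a median of 477 bp for all merged regions, and together they spanned 235 kb. The authors' fold enrichment within the peaks had a median of 3.63, 3.76 and 3.89 in sgB2/T618I replicates 1 to 3, against 4.48, 4.19 and 4.89 for all peaks of the same lists. The median −log10 q was 2.51, 3.81 and 2.82, against 5.4, 6.29 and 6.5. A −log10 q of at least 5 was reached by 45, 148 and 75 of the 441 members, compared with 53.0%, 57.9% and 59.8% of all peaks. Ranked by −log10 p within each list and averaged over the 3 lists, the members had a median percentile of 26.4 and a range from 3.87 to 71.2, where 100 would be the strongest peak of a list, and 40 of 441 were above 50. Regions nearly private to the other groups were weak too: their median percentile in their own lists was 27.9, 24.9 and 31.2 in sgNT/T618I, 22.4, 33.5 and 31.5 in sgB2/Empty and 15.0, 26.4 and 32.5 in sgNT/Empty. Strength rose with the number of other libraries allowed. The median percentile was 21.9 for the 114 members with a peak in no other library, 25.5 for the 131 with 1 and 28.8 for the 196 with 2, and it was 35.7 for the 412 regions just outside the rule, which had 3.

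**Figure D2:**
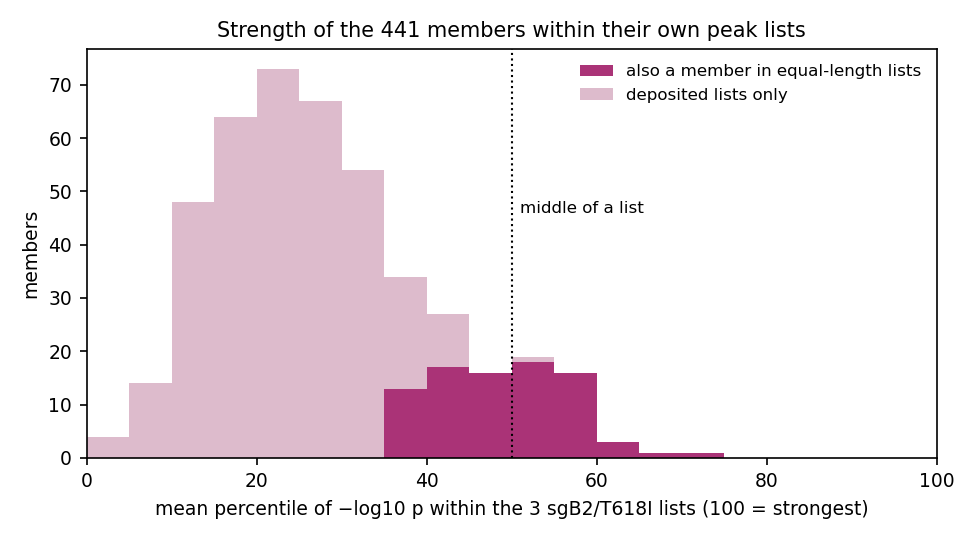
The histogram gives the members by the mean percentile of their −log10 p within the 3 sgB2/T618I lists, with the 85 that are also members in lists of equal length in the darker colour. Most members lie left of the middle of a list, with a median of 26.4, and the 85 start at a percentile of 37.1.

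Where the members did have a peak elsewhere, it was mostly in cells with T618I alone. The number of members with a peak was 132, 67 and 160 in sgNT/T618I replicates 1 to 3, 13, 37 and 49 in sgB2/Empty and 3, 28 and 34 in sgNT/Empty. The lowest sgNT/T618I library was above the highest Empty library. These peaks are among those the rule used, so the counts are a description and carry no test. The mean was 119.7 ± 47.71 in sgNT/T618I (SD, n = 3) and 27.33 ± 16.77 in the Empty libraries (n = 6). Between the Empty groups it was 33.0 ± 18.33 in sgB2/Empty and 21.67 ± 16.44 in sgNT/Empty (SD, n = 3 each), a difference smaller than the spread, and in lists of equal length it was 34.67 ± 12.06 and 13.33 ± 4.726, a difference larger than either SD. Library length moved with these counts. The Empty libraries with 3 and 13 members were the shortest lists, with 18484 and 20293 peaks. Per 1000 peaks of the library the means were 4.619 ± 1.61 in sgNT/T618I and 1.193 ± 0.6947 in Empty libraries, and in lists of equal length 84.67 ± 5.132 and 24.0 ± 14.27 members (SD, n = 3 and 6).

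**Figure D3:**
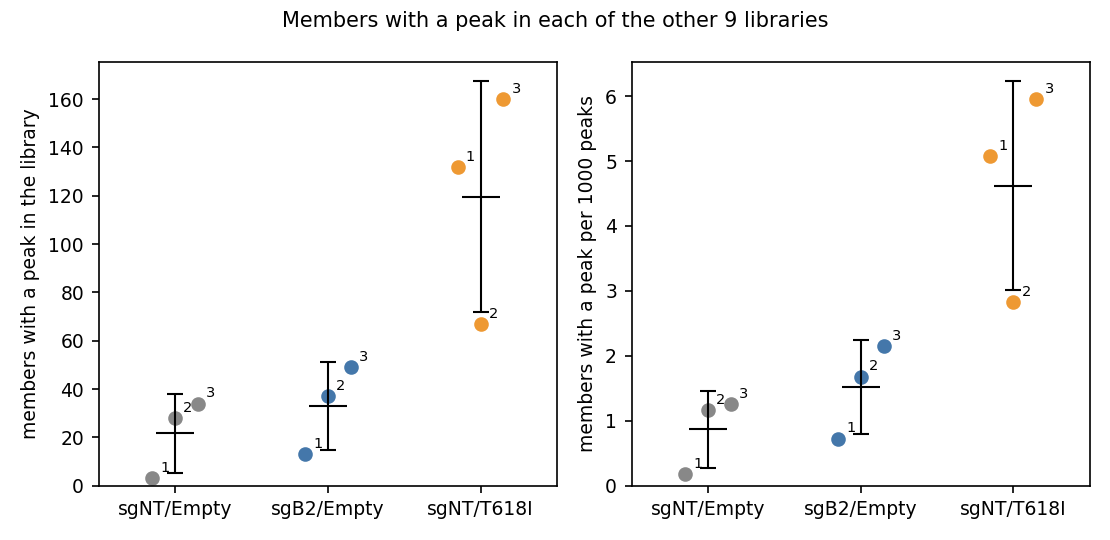
Each point is 1 library outside sgB2/T618I, numbered by replicate, with the count of members that have a peak in it on the left and the same per 1000 peaks of that library on the right. Lines and bars give the mean and SD of 3 libraries, and the 3 sgNT/T618I libraries, at 67 to 160 members, lie above all 6 Empty libraries, at 3 to 49.

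By member, 198 of 441 (44.9%) had their other peaks in sgNT/T618I only, 44 (9.98%) in sgB2/Empty only and 20 (4.54%) in sgNT/Empty only. Another 26 combined sgB2/Empty with sgNT/T618I, 28 combined sgNT/Empty with sgNT/T618I, and 11 combined both Empty groups. The 114 members (25.9%) with no peak in any other library were the only ones strictly private to sgB2/T618I, and 10 of them were still members in lists of equal length. In the opposite direction, 476 of the 947 regions nearly private to sgNT/T618I had a peak in sgB2/T618I replicate 2. Only 149 and 139 had one in replicates 1 and 3, which had the shorter lists. The same count was 14, 155 and 247 in sgNT/Empty replicates 1 to 3 and 20, 23 and 48 in sgB2/Empty. Control replicates 2 and 3 thus held more of them than sgB2/T618I replicates 1 and 3.

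The members lay further from genes than open chromatin in general. Of 441, 207 (46.9%) were inside a protein-coding gene, against 62.2% of all merged regions and 55.4% of the 6974 regions found in 3 to 5 libraries, which is the number of libraries a member can have. Within 1 kb of either end of a gene there were 32 members (7.26%), against 21.5% of all regions and 9.94% of those in 3 to 5 libraries. More than 50 kb from any gene there were 85 (19.3%), against 11.2% and 12.8%. The regions nearly private to sgNT/T618I had 55.8% inside genes, 12.5% at gene ends and 12.1% beyond 50 kb, and those nearly private to sgB2/Empty had 51.5%, 9.58% and 17.4%. The median distance to the nearest gene, for members outside genes, was 31.0 kb, compared with 18.4 kb for regions nearly private to sgNT/T618I and 28.5 kb for those of sgB2/Empty. These shares are descriptions, and differences between them were not tested.

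**Figure D4:**
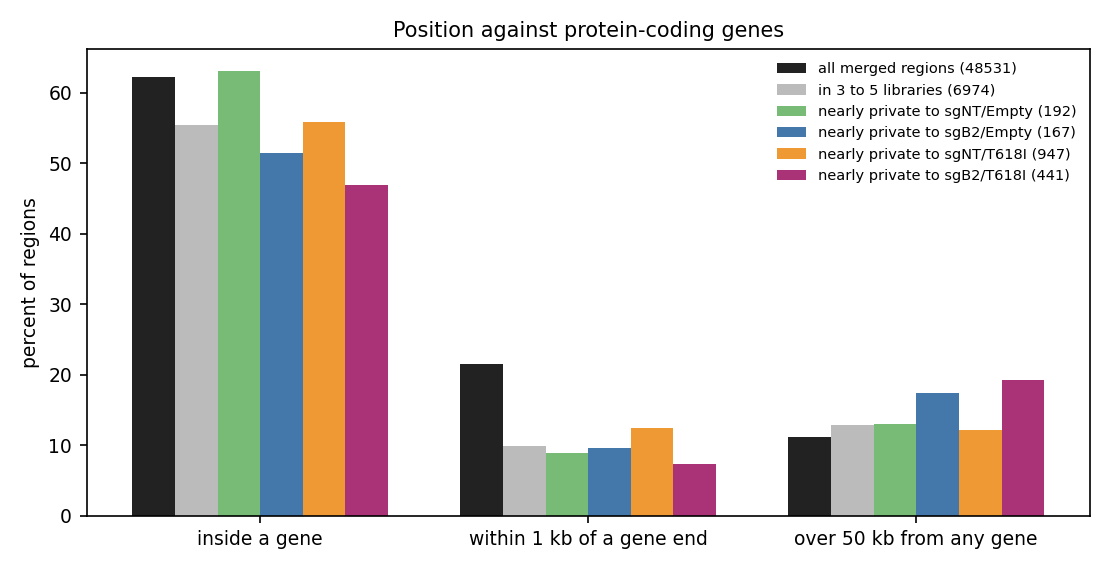
Bars give the percent of regions inside a protein-coding gene, within 1 kb of a gene end, and more than 50 kb from any gene, for all merged regions, regions in 3 to 5 libraries and the regions nearly private to each group (number of regions in brackets). The sgB2/T618I bars are the lowest inside genes (46.9%) and at gene ends (7.26%) and the highest beyond 50 kb (19.3%).

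The members were not crowded around regions that had opened with T618I in both backgrounds. Within 50 kb of the 241 regions with a peak in all 6 T618I libraries and in 0 of 6 Empty libraries there were 13 members (2.95%), which is about the share of all merged regions (3.03%), against 55 (5.81%) of the regions nearly private to sgNT/T618I. Likewise 22.2% of the members lay within 10 kb of a region found in all 12 libraries, against 23.0% of all regions and 33.5% of those nearly private to sgNT/T618I. Members were on every chromosome from 2 to 19, from 9 on chromosome 19 (5.39 per 1000 merged regions) and 28 on chromosome 2 (6.86) to 36 on chromosome 4 (10.7) and 21 on chromosome 16 (11.9). They were scattered: 389 had no other member within 100 kb, 20 pairs did, and 4 runs held 3 members each, so that 52 members (11.8%) were in runs.

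Of the 12 highest-ranking members, 4 were inside a gene and the others were up to 751 kb from the nearest one, so the genes below give positions and not targets. Slc16a10, which encodes an aromatic amino acid transporter, had the top member inside the gene (chr10:40125123-40125556, mm10), with a fold enrichment of 5.06, 4.37 and 5.63 in sgB2/T618I replicates 1 to 3 and −log10 q of 9.94, 10.7 and 12.6. Peaks there were also found in sgNT/T618I replicates 1 and 3. The member nearest to Gadd45g, a growth arrest and DNA damage response gene, was 122 kb away (chr13:51970114-51970395) and had a fold of 6.9, 4.46 and 8.35, with further peaks in sgNT/T618I replicates 2 and 3. At Cdkn1a the member was the start region shown above (chr17:29093570-29093809), at a fold of 3.32, 3.53 and 3.93 and a −log10 q of 5.4, 11.1 and 8.17. It lay inside the gene, 0.975 kb from a region that was open in all 12 libraries, and had peaks in sgNT/T618I replicates 1 and 3. The member at Max, which encodes the dimer partner of Myc, was 94.5 kb from the gene (chr12:77056780-77057315) with a fold of 4.28, 3.84 and 3.7 and peaks in sgNT/T618I replicates 2 and 3. That at Cd33, a sialic acid-binding receptor of myeloid cells, was 1.18 kb from the gene (chr7:43538604-43538871), with a fold of 5.7, 5.74 and 5.07 and peaks in sgNT/T618I replicates 1 and 3. Members near Chst11, a chondroitin sulfotransferase gene (22.8 kb; fold 4.91, 4.39 and 4.43), and inside D430041D05Rik (5.89, 5.61 and 6.07) also had their other peaks in sgNT/T618I.

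A different set shared its other peaks with the Asxl1 guide instead. The members near Cacng3, a gene of calcium channel and glutamate receptor subunits (63.2 kb; fold 4.71, 5.41 and 7.22), inside Lrig3, a leucine-rich repeat membrane protein (6.57, 5.57 and 5.44), and 234 kb from Gm51425 (5.1, 5.57 and 6.49) each had peaks in sgB2/Empty replicates 2 and 3 and in no sgNT library. The highest-ranking members with a peak in no other library were those 12.9 kb from the cytochrome P450 gene Cyp4f37 (chr17:32608108-32608373; fold 4.66, 7.91 and 5.43) and 751 kb from Gm15501 (4.99, 5.55 and 6.54). The next was 80.7 kb from Prdm1 (chr10:44609240-44609485; 4.97, 4.83 and 4.31), which encodes the transcriptional repressor BLIMP-1. Those that followed were 43.2 kb from Gm51965, 309 kb from Ccdc85a and 1280 kb from the adhesion molecule gene Alcam. Of these 6, only Gm15501 and Ccdc85a had a −log10 q of at least 5 in all 3 libraries (5.31, 8.77 and 9.76, and 5.64, 5.84 and 6.41).

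Few strong members lay at gene ends. The highest within 1 kb of an end was 0.31 kb from the protocadherin gene Pcdh1, at a fold of 4.66, 5.08 and 4.49, and it had peaks in sgNT/Empty replicate 2 and sgNT/T618I replicate 1. The others, at Frmd5, Zfp287, the butyrophilin-like gene Btnl6, Mfsd2a and the olfactory receptor gene Olfr1258, had mean percentiles between 33.8 and 41.4, and none of these 5 was a member in lists of equal length. Counting all members, 1 of the 85 kept in lists of equal length was within 1 kb of a gene end, against 32 of 441. The 26 that were kept both there and among peaks with a −log10 q of at least 5 had 0 at a gene end. Of them 7 (26.9%) lay beyond 50 kb, and their median width was 339 bp. An end here is the outer limit of the gene span. The Cdkn1a member, which is among the 26, lies over an annotated start inside that span and is not counted. Of these 26, 20 had a peak in sgNT/T618I, 5 in sgB2/Empty and 1 in sgNT/Empty, and 2 had none elsewhere.

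**Figure D5:**
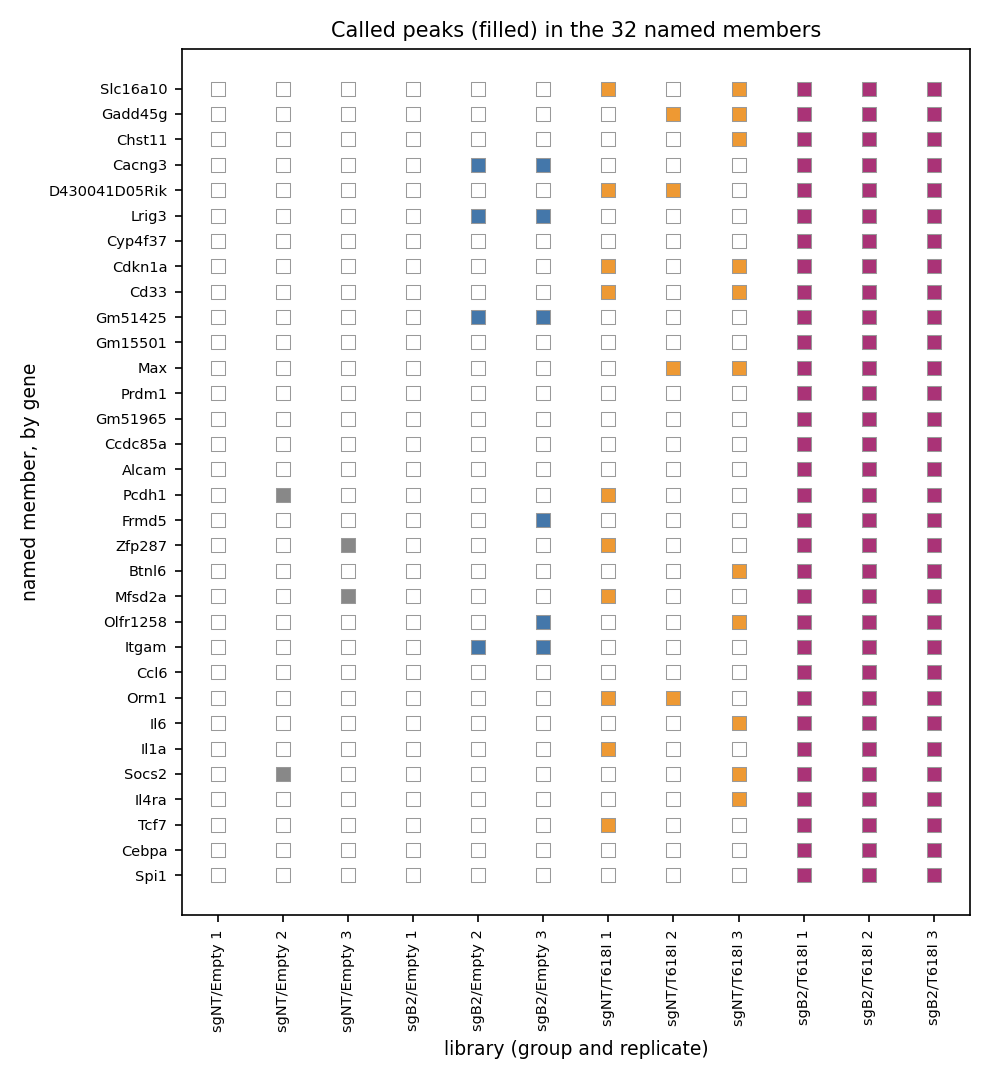
Each row is 1 of 32 named members, by its gene, and each column 1 of the 12 libraries; a filled square marks a called peak, and the 3 columns on the right are filled by the rule. Squares in the other columns are mostly in the sgNT/T618I libraries, and Cacng3, Lrig3, Gm51425 and Itgam have theirs in sgB2/Empty replicates 2 and 3.

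Genes on the 13 lists, which include lymphoid, erythroid, mast cell and Polycomb genes, had members nearby in a share close to that of all protein-coding genes. The share by list ran from 0 to 11.8%, the highest being that of the mature neutrophil genes. No list had more than 2 such genes, so the counts cannot show whether any 1 list differs from all genes, and this was not tested. A member lay within 50 kb of 799 of 19461 protein-coding genes on these chromosomes (4.11%), and of 10 of 199 genes on 13 lists (5.03%). These were Itgam and Ccl6 of 17 mature neutrophil genes, Orm1 of 18 secondary and tertiary granule genes, Il6 and Il1a of 21 NF-kB and AP-1 inflammation genes, Socs2 and Il4ra of 19 JAK-STAT targets, Tcf7 of 14 lymphoid genes, and Spi1 and Cebpa of 20 myeloid transcription factors. The lists of 11 primary granule, 14 stem and progenitor, 17 monocyte, macrophage and dendritic, 13 erythroid and megakaryocyte, 11 mast cell, basophil and eosinophil, 17 Polycomb and ASXL-BAP1 and 13 interferon response genes had 0. By the same count, regions nearly private to sgNT/T618I lay near 9.39% of all genes and near 44 of the 199 listed genes (22.1%). These included 9 of 17 mature neutrophil genes, 9 of 18 secondary and tertiary granule genes, 6 of 21 NF-kB and AP-1 inflammation genes, 6 of 19 JAK-STAT targets, 6 of 13 interferon response genes and 4 of 17 Polycomb and ASXL-BAP1 genes. They also included 2 of 20 myeloid transcription factors, 1 each of the primary granule, stem and progenitor, and monocyte, macrophage and dendritic genes, and 0 on the other 3 lists.

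All 10 of these members were weak, with mean percentiles from 16.5 to 38.9, and none was a member in lists of equal length. At Spi1, which encodes the myeloid master regulator PU.1, the member inside the gene (chr2:91084348-91084722) had a −log10 q of 2.83, 2.04 and 2.05 and lay 0.479 kb from a region found in all 12 libraries. That near Cebpa, the gene of a factor needed for granulocyte formation, was 32.4 kb away (chr7:35154357-35154736) and had a −log10 q of 2.54, 3.32 and 2.3. Ccl6, a chemokine of myeloid cells, had its member 18.4 kb away at 2.41, 2.12 and 2.59. These 3 had no peak in any other library. The member 47.1 kb from the cytokine gene Il6 (chr5:29965807-29966047; 2.65, 5.32 and 3.09) and that 40.1 kb from Il4ra, the interleukin 4 receptor (chr7:125511578-125512143; 2.15, 3.72 and 3.83), each had 1 other peak, in sgNT/T618I replicate 3. Socs2, a feedback inhibitor of JAK-STAT signalling, had a member at 25.1 kb with peaks in sgNT/Empty replicate 2 and sgNT/T618I replicate 3. Itgam, the integrin CD11b of neutrophils and monocytes, had one at 17.6 kb with peaks in sgB2/Empty replicates 2 and 3.

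Runs of 3 members lay at 4 places, among them genes of signalling proteins and of a receptor. The runs were at Abr, a regulator of small GTPases (chr11:76577807-76629117), Swap70, a signalling protein that binds actin and Rac (chr7:110204174-110282268), Acvrl1, a TGF-beta family receptor (chr15:101091839-101148214, also near Fignl2 and Ankrd33), and Car8, a carbonic anhydrase-related protein (chr4:8199936-8318434). Of these 12 members, 1 was kept in lists of equal length, the one 17.1 kb from Swap70. Peak coverage around Car8 outside its members, scaled to equal totals, was 0.77, 0.836 and 0.968 kb in cells with both changes. It was 0.385, 0.212 and 0.173 kb with T618I alone, 0.33, 0.268 and 0.264 kb with the Asxl1 guide alone and listed at 0 in all 3 control libraries. The sgB2/T618I values did not overlap the others, but the gene was chosen for its members and this was not tested. Around Swap70 the same measure was 3.78, 2.73 and 3.3 kb in sgB2/T618I and between 1.84 and 2.9 kb in the other 9 libraries, and the groups overlapped. Around Abr and Acvrl1 it was highest with T618I alone, at 9.2 ± 0.487 and 4.78 ± 0.419 kb (SD, n = 3), against 8.41 ± 0.449 and 4.24 ± 0.138 kb with both changes.

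To see whether chromatin around the members already differed with each change alone, peak coverage in each gene span with 50 kb on either side was compared after the bases of the members had been left out, over the 9 libraries that do not carry both changes. With T618I in sgNT cells, coverage rose around 153 (1.0 percent) and fell around 42 (0.275 percent) of 15261 genes tested (limma, Benjamini-Hochberg adjusted p under 0.05). Of 727 tested genes with a member within 50 kb, 18 (2.48%) in 10 separate loci rose and 0 fell. At an unadjusted p under 0.05, 79 of the 727 rose and 37 fell, together 16.0%, against 13.1% of all genes tested. That count over all genes was not split by direction. Coverage was higher with T618I around 47.6% of the 727 and 39.9% of all genes tested. The median log2 change of the 727 was -0.02, against -0.06 for all genes. The differences between these shares were not tested, and neighbouring genes share peaks. The count of 18 varied widely. It was 6 without sgNT/T618I replicate 2 and 7 without replicate 1 or 3 of that group. It was 7 and 10 without sgNT/Empty replicates 2 and 1, 2 with 10 kb windows and 1 without scaling. With sgB2 and the empty vector, 23 genes (0.151 percent) rose and 15 (0.0983 percent) fell, and of the 727 genes 1 rose and 0 fell. At an unadjusted p under 0.05, 25 of the 727 rose and 58 fell, together 11.4% against 11.5% of all genes. That count over all genes was not split by direction either. Coverage was higher with sgB2 around 41% of the 727 and 51.2% of all genes. Among stricter peaks it was higher around 56% of the genes near members and 56.1% of all genes. These shares were not tested. The balance of rises and falls with sgB2 turned when 1 library was left out: 35 rose and 90 fell without sgNT/Empty replicate 1, 14 rose and 29 fell without sgB2/Empty replicate 3, and 9 rose and 10 fell without sgB2/Empty replicate 2. The sgNT/Empty libraries are shared by both comparisons.

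The genes called in these comparisons are named here after their values were seen. Fam155a, which encodes an auxiliary protein of the NALCN sodium leak channel and had a member inside the gene (chr8:9460717-9460963; also a peak in sgNT/T618I replicate 3), was the 1 gene called in both. Outside the member its coverage was listed at 0 in all 3 sgNT/Empty libraries, at 1.36, 1.38 and 1.69 kb with the Asxl1 guide alone, at 1.3, 0.663 and 1.25 kb with T618I alone and at 1.77, 1.23 and 1.93 kb with both. On the scale of log2 of kb plus a pseudocount of 500 bp, it rose by 1.63 ± 0.20 with T618I (SE; limma adjusted p = 0.00278) and by 1.98 ± 0.20 with sgB2 (limma adjusted p = 0.00143). With the control listed at 0 the pseudocount sets these sizes: they were 3.5 and 3.98 with 100 bp and 1.04 and 1.31 with 1000 bp. The gene passed the filter of 500 bp only through the groups in which it rose. Without scaling the sgB2 call was lost (limma adjusted p = 0.102), and in lists of equal length and among stricter peaks the gene was not tested because its mean was under 500 bp.

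The other loci rose with T618I alone. At Ifitm6 and Ifitm3, interferon-induced membrane protein genes that share a window with B4galnt4, coverage around Ifitm6 was 4.99, 5.45 and 5.05 kb in the control libraries and 10.5, 11.3 and 10.2 kb with T618I alone. With the Asxl1 guide it was 3.53, 4.18 and 5.09 kb under the empty vector and 8.25, 7.27 and 10.0 kb under T618I, so that all 6 T618I libraries were above all 6 Empty libraries. The log2 change with T618I in sgNT cells was 0.98 ± 0.12 (SE; limma adjusted p = 0.00285). With 10 kb windows it was 0.48 (limma adjusted p = 0.346), and the call was also lost without scaling (adjusted p = 0.0884) and among stricter peaks (adjusted p = 0.0837). The member there (chr7:141038621-141039105) had a mean percentile of only 9.73. Around Lfng, a glycosyltransferase that modifies Notch and shares its window with Grifin and Ttyh3, coverage was 3.47, 2.88 and 4.17 kb in the control libraries and 3.65, 3.25 and 3.45 kb with the Asxl1 guide alone. It was 6.46, 7.39 and 6.85 kb with T618I alone and 4.82, 4.5 and 4.73 kb with both changes (log2 change in sgNT cells 0.90 ± 0.13, limma adjusted p = 0.00433). The cells with both changes lay between the Empty groups and T618I alone there, without overlap. Coverage also rose around Nlrp12 (log2 change 0.79), Prkcq (0.80), Gm42048 (0.90) and the amino acid transporter gene Slc7a5 (0.53), the bitter taste receptor genes Tas2r126, Tas2r135 and Tas2r143 (0.75 to 0.82), Ahdc1 (0.73), Pebp4 (0.67) and Tent5c (0.63), each at an adjusted p under 0.05 by limma. Many of these calls were lost under the alternatives run: Tas2r143 in 15 of 18, Tent5c in 14, Prkcq and Tas2r135 in 11, Slc7a5 in 10, Nlrp12 in 9, Pebp4 in 7 and Ahdc1 in 6 of 18, Tas2r126 in 10 of 17, and Gm42048 in 2 of 18, with Lfng lost in 1 of 18, that without scaling. With the replicate number as a block Slc7a5, Tent5c and the 3 Tas2r genes were among those lost (limma adjusted p from 0.0587 to 0.0696).

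Around the listed genes with a member nearby that could be tested, the change with T618I did not pass in the main fit. Il4ra coverage outside its member was 1.56, 3.7 and 3.56 kb in the control libraries and 1.37, 2.11 and 2.81 kb with the Asxl1 guide alone. It was 5.73, 6.67 and 4.65 kb with T618I alone and 6.29, 4.39 and 5.5 kb with both changes, without overlap of the T618I groups with the control (log2 change in sgNT cells 0.90 ± 0.26, limma adjusted p = 0.125). Ccl6 had 0.58 ± 0.16 (limma adjusted p = 0.114) and Spi1 0.41 ± 0.11 (limma adjusted p = 0.109) by the same fit. Orm1 had 0.26, Itgam 0.19, Il1a 0.08, Socs2 0.01, Cebpa -0.12 and Tcf7 -0.31 (limma adjusted p from 0.572 to 0.984). Cdkn1a, which was named by its rank and not from the lists, had 0.02 ± 0.12 (limma adjusted p = 0.943). In lists of equal length Il4ra and Ccl6 passed, at 1.14 (limma adjusted p = 0.0121) and 0.63 (limma adjusted p = 0.0452). Il6 had too little coverage in the 9 libraries to be tested, with 0 to 0.26 kb in the Empty libraries, 0.603, 1.12 and 0.528 kb with T618I alone and 1.03, 1.29 and 1.23 kb with both changes.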

How the data were processed

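The deposited files were 12 ATAC-seq broad peak lists, 1 per library, on mm10. Per the submitters' processing notes the tools were BWA 0.7.17, SAMtools 1.9, bedtools 2.30, MACS2 2.2.7.1 and deepTools 3.5. The authors' fold (a ratio) was read only within its own list, the deposited −log10 p ranked peaks within a list and the deposited −log10 q filtered them, since all depend on depth, which is unknown. The deposited score was not used.

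Peaks were merged with at least 1 bp overlap in python 3.11.15 (numpy 2.4.6, pandas 2.3.3, scipy 1.17.1, matplotlib 3.10.9), and the merge was checked with bedtools 2.31.1. Genes were 21631 protein-coding genes of the GRCm38.p6 RefSeq table, which has no strand, and start windows came from RefSeq. Peak-covered length per gene span with 50 kb on each side, members left out, was scaled to equal totals, and log2 of it plus 500 bp was fitted to 9 libraries in 3 groups with limma 3.58.1 (trend, R 4.3.3), leaving out genes whose mean was under 500 bp. The T618I comparison in sgNT cells was checked by simulation over 15261 genes: of 100 genes given a log2 change of 1 the fit called 81, of 100 given a change of 2 it called 99, and it called 11 others. Named members were the 12 with the highest mean percentile, the 6 highest with no other library, the 6 highest within 1 kb of a gene end, those within 50 kb of a listed gene and runs of at least 3. The exact permutation tests planned on the members' peaks in the other 9 libraries are not reported, because the rule used those peaks. The members, the 13 gene lists and the tests were chosen with earlier results of these data known. Alternatives covered list length, −log10 q, overlap, merging, the number of other libraries, pseudocount, filter, window, scaling, block and each library left out. A result that needs an item withheld for evaluation is not reported here.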

Additional observations from a re-analysis of the deposited data

How the results depend on the processing

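With peaks merged up to 200 bp apart, with peaks covering at least 50% of a region, or with chromosomes 1 and X added, the 4 counts of nearly private regions stayed within 1.5 times. In lists of equal length they moved to 359 for sgB2/Empty and 469 for sgNT/T618I, and with a −log10 q of at least 5 to 98 for sgNT/Empty and 118 for sgB2/T618I. With none, at most 1 or at most 3 of the other 9 libraries allowed, the counts were 40, 109 and 377 for sgNT/Empty, 33, 87 and 312 for sgB2/Empty, 152, 471 and 1678 for sgNT/T618I and 114, 245 and 853 for sgB2/T618I. Leaving out 1 library gave 199 to 1512, 186 to 585, 978 to 1825 and 449 to 1123 regions in the same order. The highest values came without sgNT/Empty replicate 1, sgB2/Empty replicate 1, sgNT/T618I replicate 2 and sgB2/T618I replicate 3. Each is a library of the group itself, of which the rule then asks for fewer. The median percentile of the members was 45.3 in lists of equal length.

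The excess of sgNT/T618I over Empty libraries in mean members with a peak ranged from 72.2 to 119 with 1 library left out. The members were kept fixed and the rule had used these peaks, so this range is only a description. Genes called for T618I, 195 in all, numbered 127 with a pseudocount of 100 bp, 36 with 10 kb windows, 16 without scaling (16 up and 0 down, with the median of all genes at 0.19) and 489 in lists of equal length (299 up and 190 down), and 39 to 206 with 1 library left out, the lowest without sgNT/T618I replicate 2, with 51 and 56 without replicates 1 and 3 of that group and 121 and 93 without sgNT/Empty replicates 1 and 2. Risen genes near members, 18 in all, numbered 2, 1 and 33 with 10 kb windows, without scaling and in lists of equal length, and 6 to 17 with 1 library left out. Genes called for sgB2, 38 in all, numbered 10 with a pseudocount of 100 bp, 24 with 10 kb windows (8 up and 16 down), 0 without scaling, 24 in lists of equal length and 8 with stricter peaks (1 up and 7 down), and 9 to 125 with 1 library left out, the extremes without sgNT/Empty replicates 2 and 1, with 13 to 20 without sgNT/Empty replicate 3, sgB2/Empty replicate 1 or 2 or sgNT/T618I replicate 1 or 3. The causes were not tested. With the replicate number as a block 133 genes rose and 27 fell with T618I, 16 of the risen near members, and 19 rose and 11 fell with sgB2. Libraries with the same number did not deviate together (median correlation 0.01, and 4 of 9 libraries correlated best with their own number), so the numbers were not taken as a pairing. None of the genes called with T618I or sgB2 near members changed direction under the alternatives in which it was tested. Of the genes with no call that were followed under the alternatives, Il4ra, Ccl6 and Spi1 kept their direction. Cdkn1a ranged from -0.00 to 0.06 with 1 library left out. Its change was 0.51 with 10 kb windows (limma adjusted p = 0.161) and 0.28 without scaling. In lists of equal length it was 0.26 (limma adjusted p = 0.264). Unknown read depth limits every statement on the absence of a peak.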

Other observations

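The rule left out chromosomes 1 and X. Applied there, it gave 108 regions nearly private to sgB2/T618I on chromosome 1, or 15.2 per 1000 merged regions, against 9.09 on chromosomes 2 to 19, and 54 to sgB2/Empty (7.58 against 3.44), 30 to sgNT/T618I (4.21 against 19.5) and 8 to sgNT/Empty (1.12 against 3.96). On chromosome X it gave 3 for sgB2/T618I and 1 for sgB2/Empty (2.93 and 0.977 per 1000 regions), but 38 for sgNT/T618I and 10 for sgNT/Empty (37.1 and 9.77). Both groups with the Asxl1 guide were thus above their share elsewhere on chromosome 1 and below it on X, and both sgNT groups the other way round. The guide and any other difference between the cell lines cannot be told apart here. The reverse of the rule, with a peak in 0 of the 3 libraries of a group and at least 7 of the other 9, gave 241 regions on chromosomes 2 to 19 for sgB2/T618I, 248 for sgNT/Empty and 66 for sgNT/T618I, and was highest for sgB2/Empty. These counts were not tested.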
